A study of Homo sapiens with 14 samples.

Results

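Water channels and mechanically or osmotically gated cation channels were followed in cartilage pellets through 6 genes, AQP1, AQP3, AQP6, TRPV4, PIEZO1 and PIEZO2. They are 6 of the 60587 genes in the deposited tables, found by Ensembl identifier and symbol, and they were chosen with their expected counts and TPM on the 3 days known. Their differences between days are therefore described and not tested. The pellets were grown from WA01, an established human embryonic stem cell line, in medium that drives cells to form cartilage, and their RNA was sequenced at day 21 (4 libraries), day 30 (5 libraries) and day 45 (5 libraries). All libraries come from this 1 line, and the labels name no genetic change and no treatment besides this medium. Nothing in the labels tells whether libraries of a day came from different cultures, so a p-value here reflects the spread among these libraries, part of which may be technical.

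Aquaporins are membrane pores for water, and AQP3 also passes glycerol. Cartilage cells sit in a charged matrix that holds water and swells, so their surroundings change in osmolarity and in load. TRPV4 is a calcium-permeable channel opened by swelling and mechanical stimuli, is abundant in chondrocytes, and is mutated in inherited skeletal dysplasias. PIEZO1 and PIEZO2 are large channels opened directly by membrane tension. Chondrocytes use both, and PIEZO2 is best known as the channel of touch and of the sense of limb position. AQP6 is known from kidney cells, where it lies in vesicles inside the cell.

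The 6 genes lie on 5 chromosomes in GRCh38 (GENCODE 29 positions). AQP1 (ENSG00000240583) is at chromosome 7, 30911694 to 30925516, plus strand, and AQP3 (ENSG00000165272) at chromosome 9, 33441154 to 33447633, minus strand. AQP6 (ENSG00000086159) is at chromosome 12, 49967194 to 49977139, plus strand, and TRPV4 (ENSG00000111199) on the same chromosome at 109783085 to 109833401, minus strand. PIEZO1 (ENSG00000103335) is at chromosome 16, 88715338 to 88785220, minus strand, and PIEZO2 (ENSG00000154864) at chromosome 18, 10666483 to 11148762, minus strand.

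The bases before the start of PIEZO1 and PIEZO2 are shown because these paralogs went in opposite directions between days. The windows are the 250 bases before the RefSeq start, chr16:88785221-88785470 and chr18:11149570-11149819, both read on the minus strand of GRCh38.p14. Capitals mark TATAAA, the TATA box, and GGGCGG, the GC box, on either strand.
PIEZO1: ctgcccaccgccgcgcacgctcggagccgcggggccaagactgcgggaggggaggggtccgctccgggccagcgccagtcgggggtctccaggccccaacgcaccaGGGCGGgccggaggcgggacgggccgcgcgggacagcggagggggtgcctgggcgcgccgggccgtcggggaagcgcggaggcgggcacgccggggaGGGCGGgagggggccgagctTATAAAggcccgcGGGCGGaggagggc
PIEZO2: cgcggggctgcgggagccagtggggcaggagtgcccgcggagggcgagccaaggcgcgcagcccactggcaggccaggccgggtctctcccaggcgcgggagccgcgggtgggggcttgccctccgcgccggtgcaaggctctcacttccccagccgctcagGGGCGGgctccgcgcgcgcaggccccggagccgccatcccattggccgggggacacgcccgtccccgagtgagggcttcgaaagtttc
The PIEZO1 window held 1 TATAAA, whose first base lay 27 bases before the start, and 3 GC boxes. The PIEZO2 window held no TATAAA and 1 GC box. Windows for AQP1 and AQP3 each held 1 TATAAA on the gene's strand as well, starting 30 and 32 bases before the start. Of 35116 windows of the same length, 10.7% held TATAAA and 42.6% held GGGCGG on either strand. None of the 4 windows held GGAATG, the core bound by TEAD factors (11.9% of all windows), ACGTG, the core of hypoxia response elements (18.5%), or ACAATG, a SOX site (9.29%). GC content was 81.2% for PIEZO1, 76.8% for PIEZO2, 73.6% for AQP3 and 65.2% for AQP1, against a median of 58% over all windows. These matches are descriptions of letters. The RefSeq start of PIEZO1 is also the GENCODE 29 gene start, while that of PIEZO2 (11149569) lies outside the GENCODE 29 gene, which starts at 11148762. The RefSeq starts of AQP1 (30911853) and AQP3 (33447593) lie inside their GENCODE 29 genes, which start at 30911694 and 33447633. The TATAAA matches of AQP1 and AQP3 thus also lie inside those genes.

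The libraries held 18183776 to 33660704 expected counts, and all 6 genes were among the 17838 that passed the filter on low counts. The title of 1 library names day 45, replicate 1, while its treatment label gives 30 days. The title was followed. In every library titled day 45, this one included, the hypertrophic cartilage marker COL10A1 was at 909 TPM or more. The cartilage marker COMP was at 1272 TPM or more in them. In day 30 libraries COL10A1 was at most at 110 TPM and COMP at most at 411 TPM. At day 30, long transcripts were under-represented in replicates 3, 4 and 5. Spearman's rho between a gene's transcript length and its departure from the average library, taken over genes that are not independent of each other, was -0.52 to -0.43 in those 3 libraries. It was -0.07 and -0.01 in the other day 30 libraries and 0.12 to 0.26 in the libraries of days 21 and 45. The longest protein-coding transcript measures 9718 bases for PIEZO2, 8089 for PIEZO1, 3247 for TRPV4, 2913 for AQP1, 2245 for AQP6 and 1871 for AQP3. All 12 cartilage markers averaged at least 1 TPM over the libraries. Together they summed to 26326 to 30420 TPM in day 21 libraries and 42997 to 105332 TPM in day 30 libraries. In day 45 libraries the sum was 74455 to 108637 TPM. COL2A1 was the most abundant, with means of 13421, 42188 and 55099 TPM at days 21, 30 and 45. Mean COL9A2 (2355, 3851 and 1190 TPM) and MATN1 (130, 556 and 66.3 TPM) were lower at day 45 than at day 21. Means of the other cartilage markers were higher at day 45 than at day 21. Among those, COL9A1, COL9A3, COL11A1 and COL11A2 were lower at day 45 than at day 30. Of 7 pluripotency markers, which define the labelled cell type, 1 averaged at least 1 TPM, and NANOG was at most at a mean of 0.038 TPM on any day. That list summed to 19.6 to 24.1 TPM at day 21, most of it DPPA4, and to 1.98 TPM or less in day 45 libraries. Of 8 markers of hypertrophic cartilage, 7 averaged at least 1 TPM, and they summed to 1507 to 3484 TPM in day 45 libraries and 144 to 316 TPM in day 21 libraries. COL10A1 made up most of the sum at day 45, with a mean of 1424 TPM there and 14.8 TPM at day 21, and SPP1 averaged 25.2 TPM at day 45 and 136 TPM at day 21. Their part in the values of the 6 genes was not tested.

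Per length, PIEZO1 and TRPV4 were the most abundant of the 6 genes on every day, and AQP6 the least. At day 21 the order by mean TPM was PIEZO1, TRPV4, PIEZO2, AQP3, AQP1 and AQP6, and no neighbours in that order overlapped. PIEZO1 averaged 60.9 ± 10.6 TPM and TRPV4 31.5 ± 3.71 TPM (SD, n = 4). At day 30 PIEZO1 (82.8 ± 8.49 TPM) and TRPV4 (81.2 ± 15 TPM; SD, n = 5) overlapped, as did AQP3 (15.3 ± 3.67 TPM) with PIEZO2 (10 ± 4.86 TPM), and PIEZO2 with AQP1 (9.41 ± 1.48 TPM). AQP6 (5.88 ± 0.434 TPM; SD, n = 5) lay below AQP1 in all 5 libraries. At day 45 TRPV4 was first in all 5 libraries with 144 ± 7.38 TPM, and PIEZO1 followed with 83.4 ± 6.13 TPM (SD, n = 5). AQP3 (20.1 ± 4.01 TPM), AQP1 (10 ± 1.39 TPM), PIEZO2 (5.9 ± 0.501 TPM) and AQP6 (0.4 ± 0.193 TPM; SD, n = 5) came next, again with no overlap between neighbours.

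For changes within a gene, levels are given as CPM, expected counts scaled to library size with TMM factors, and each log2 fold change has its standard error (SE) from 1 edgeR fit over all genes. In RNA from pellets, fewer cells of a type and less RNA per cell cannot be told apart. Between day 45 and day 21, the CPM of the 2 days did not overlap for 5 of the 6 genes, 3 higher and 2 lower at day 45. Of all genes tested, 51.5% had days that did not overlap in this comparison, 25.3% higher and 26.2% lower. Between day 30 and day 21 they did not overlap for 4 of the 6 genes, 3 higher and 1 lower, against 42.4% of all genes (20% higher, 22.4% lower). Between day 45 and day 30 it was 3 of the 6, 2 higher and 1 lower, against 38.3% (19.8% higher, 18.6% lower). In TPM the counts were 4, 4 and 2 of the 6 in the same order of comparisons, against 53.7% (10.9% higher, 42.8% lower), 48.1% (7.06% higher, 41.0% lower) and 32.4% (16.9% higher, 15.5% lower) of all genes. The 6 genes were chosen on these values, so nothing is read from these counts.

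**Figure D1:**
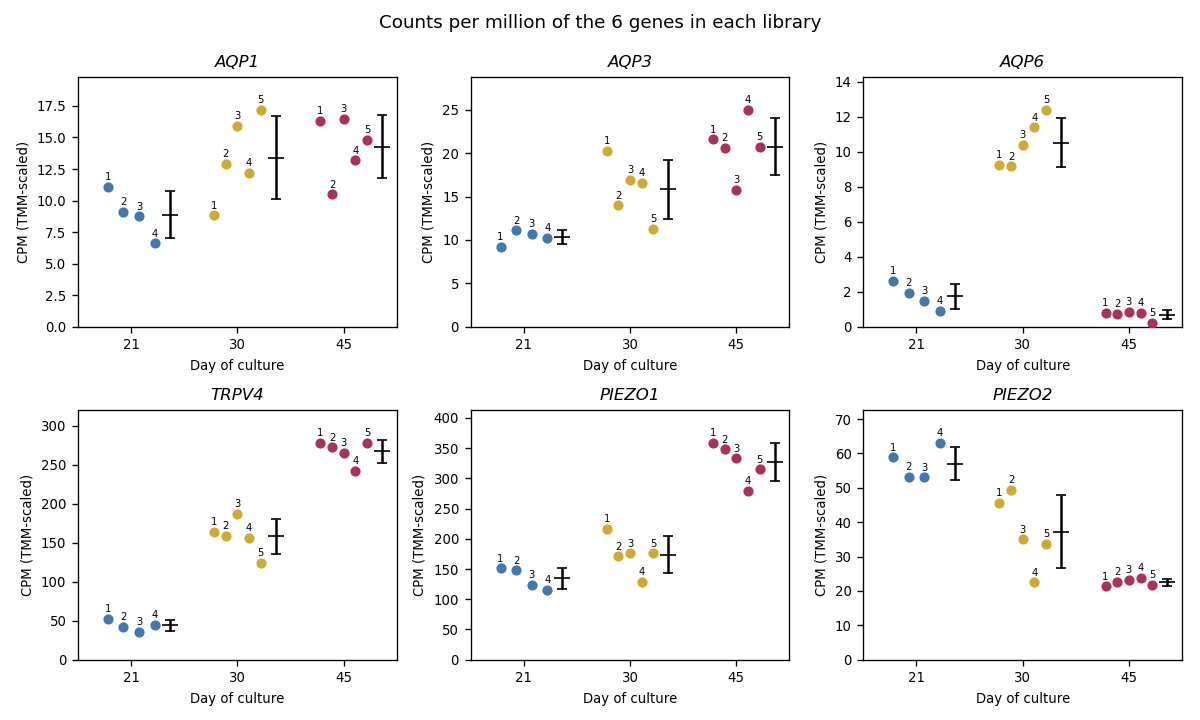
CPM (TMM-scaled, linear axis from 0) of the 6 genes against day of culture. Each point is a library with its replicate number, and bars are the mean ± SD of a day (n = 4 at day 21, n = 5 at days 30 and 45). TRPV4 was at 35.9 to 52.7 CPM at day 21 and at 242 to 278 CPM at day 45, and AQP6 was high at day 30 alone.

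AQP1, the widespread water channel, had the smallest difference of the 6 genes between days 45 and 21. It was at 11.1, 9.12, 8.74 and 6.6 CPM in day 21 replicates 1 to 4. At day 30 it was at 8.84, 12.9, 15.9, 12.2 and 17.2 CPM, and at day 45 at 16.3, 10.5, 16.5, 13.2 and 14.8 CPM in replicates 1 to 5. All 3 days overlapped. The log2 fold change was 0.68 ± 0.19 (SE) for day 45 against day 21, 0.59 ± 0.19 for day 30 against day 21 and 0.09 ± 0.18 for day 45 against day 30. The last value took the other sign without day 30 replicate 1 (-0.03), when the library with conflicting labels was counted as day 30 (-0.01), and in limma's voom (-0.05). Without day 30 replicates 3 to 5 the value for day 30 against day 21 was 0.28, and that for day 45 against day 30 was 0.39.

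AQP1 is also the channel of endothelium and red cells, so markers of both were summed. Of 9 endothelial markers, 2 averaged at least 1 TPM, KDR and TIE1, and CDH5 was at 0 in every library. The list summed to 10.4 to 14.9 TPM in day 21 libraries, 4.92 to 8.11 TPM in day 30 libraries and 5.61 to 11.7 TPM in day 45 libraries. These 2 markers went in opposite directions. KDR averaged 10.7, 2.99 and 2.6 TPM at days 21, 30 and 45, and TIE1 averaged 1.69, 3.48 and 5.39 TPM. None of the 8 erythroid markers averaged 1 TPM, their sum stayed at 0.79 TPM or below, and HBG1 was at 0 in every library. The part of these cells in the AQP1 values was not tested. Within AQP1 itself, 910 exonic bases are shared with a gene on the same strand, AC004691.2, which was at most at a mean of 0.102 TPM on any day.

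AQP3, the water and glycerol channel, was about 2-fold higher at day 45 than at day 21 in TMM-scaled CPM, and 1.46-fold higher in TPM. It was at 9.23, 11.1, 10.7 and 10.2 CPM in day 21 replicates 1 to 4. At day 30 it was at 20.3, 14, 16.9, 16.6 and 11.3 CPM, and at day 45 at 21.6, 20.6, 15.8, 25 and 20.7 CPM in replicates 1 to 5. Every library of days 30 and 45 lay above every day 21 library, and days 30 and 45 overlapped. The log2 fold change was 1.01 ± 0.15 (SE) for day 45 against day 21, 0.62 ± 0.15 for day 30 against day 21 and 0.39 ± 0.14 for day 45 against day 30. On the TPM scale these days overlapped, with 14.5 to 25.8 TPM at day 45 and 11.3 to 15.7 TPM at day 21. AQP3 is a channel of epithelia. Of 10 epithelial markers 4 averaged at least 1 TPM. The list summed to 55.2 to 91.3 TPM at day 45 and 81.6 to 111 TPM at day 21, most of it KRT8. Mean KRT8 and KRT18 were lower at day 45 (41.6 and 9.62 TPM) than at day 21 (71.6 and 16.3 TPM). Mean KRT19 and CLDN4 were higher at day 45 (15.2 and 1.39 TPM) than at day 21 (5.12 and 0.645 TPM). EPCAM and CDH1, which define epithelium, stayed below a mean of 0.2 TPM on every day. The part of epithelial cells in the AQP3 values was not tested.

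AQP6 peaked at day 30. Its expected counts were 94, 77, 57 and 32 in day 21 replicates 1 to 4. They were 242, 163, 224, 230 and 323 at day 30, and 20, 20, 23, 19 and 5 at day 45 in replicates 1 to 5. These counts gave 1.74 ± 0.723 CPM at day 21 (SD, n = 4), 10.5 ± 1.4 CPM at day 30 and 0.674 ± 0.264 CPM at day 45 (SD, n = 5). Every day 30 library was above all others, and every day 45 library was below all day 21 libraries. The log2 fold change was 2.60 ± 0.28 (SE) for day 30 against day 21, -3.95 ± 0.29 for day 45 against day 30 and -1.35 ± 0.31 for day 45 against day 21. As a share of the TPM of AQP1, AQP3 and AQP6 together, AQP6 was 6.04% ± 2.18 at day 21 (SD, n = 4), 19.4% ± 2.84 at day 30 and 1.33% ± 0.652 at day 45 (SD, n = 5). Of the 5 AQP6 transcripts in the files, 4 are protein-coding and at most 2245 bases long, and the other measures 5129 bases. The mean AQP6 transcript length was 2406 bases or more in every library, with day means of 2726, 2861 and 3168 bases. Part of the AQP6 signal on every day was thus assigned to the transcript that is not protein-coding.

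AQP6 shares 137 exonic bases with RACGAP1 on the opposite strand, and the library kit does not mark strand, so reads there cannot be assigned to either. RACGAP1, a gene of cell division, averaged 52.3 TPM at day 21, 11.6 TPM at day 30 and 26.1 TPM at day 45. The part of its reads in the AQP6 values was not tested. Kidney tubule markers were low on all days, with UMOD at 0 in every library and 2 of 9 at a mean of 1 TPM or more. Of these 2, FXYD2 had its highest mean at day 30, with 2.96, 5.53 and 2.34 TPM at days 21, 30 and 45. CUBN averaged 0.672, 2.1 and 2.17 TPM. All 9 kidney markers summed to 3.59 to 5.67 TPM in day 21 libraries and 6.49 to 9.52 TPM in day 30 libraries. In day 45 libraries they summed to 3.05 to 6.96 TPM. Their part in the AQP6 values was not tested.

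TRPV4 differed most between days 45 and 21 among the 4 channels and pores that were higher at day 45. It was at 52.7, 42.2, 35.9 and 44.6 CPM in day 21 replicates 1 to 4. At day 30 it was at 164, 159, 187, 156 and 124 CPM, and at day 45 at 278, 272, 265, 242 and 278 CPM in replicates 1 to 5. No day overlapped with another. The log2 fold change was 2.61 ± 0.13 (SE) for day 45 against day 21, a 6.1-fold difference, with 1.85 ± 0.13 for day 30 against day 21 and 0.76 ± 0.11 for day 45 against day 30. On the TPM scale the days did not overlap either, with 28.2 to 36.8 TPM at day 21, 59.1 to 93.2 TPM at day 30 and 136 to 154 TPM at day 45. Without day 45 replicate 1 the difference between days 45 and 21 was 2.60, and without day 30 replicates 3 to 5 that between days 30 and 21 was 1.87.

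PIEZO1 and PIEZO2 went in opposite directions. PIEZO1 was at 151, 148, 124 and 116 CPM in day 21 replicates 1 to 4. At day 30 it was at 216, 171, 176, 129 and 176 CPM, and at day 45 at 359, 348, 333, 279 and 315 CPM in replicates 1 to 5. Day 45 lay above both other days, and days 30 and 21 overlapped. The log2 fold change was 1.28 ± 0.13 (SE) for day 45 against day 21, 0.37 ± 0.13 for day 30 against day 21 and 0.91 ± 0.12 for day 45 against day 30. Without day 30 replicates 3 to 5 these values were 1.26, 0.52 and 0.74. In TPM it was at 83.8, 93.4, 82.7, 80.1 and 77.2 in day 45 replicates 1 to 5 and at 78.7, 77.7, 95.9, 75.1 and 86.7 in day 30 replicates 1 to 5, so that these days overlapped on that scale. Both lay above the 64.5, 69, 65 and 45.3 TPM of day 21 replicates 1 to 4.

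PIEZO2 was at 58.9, 53.2, 53 and 63.1 CPM in day 21 replicates 1 to 4. At day 30 it was at 45.7 and 49.4 CPM in replicates 1 and 2 and at 35, 22.5 and 33.6 CPM in replicates 3, 4 and 5. At day 45 it was at 21.3, 22.6, 23.2, 23.8 and 21.7 CPM in replicates 1 to 5. Every later library was below every day 21 library, and day 30 reached into the day 45 range through replicate 4 only. The log2 fold change was -1.34 ± 0.16 (SE) for day 45 against day 21, -0.62 ± 0.16 for day 30 against day 21 and -0.72 ± 0.15 for day 45 against day 30. Without day 30 replicates 3 to 5, the libraries low in long transcripts, the values were -0.27 for day 30 against day 21 and -1.09 for day 45 against day 30. With an offset for transcript length they were -0.13 and -1.03. The value for day 45 against day 21 was -1.36 without those libraries and -1.16 with the offset.

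As a share of the TPM of both PIEZO genes, PIEZO2 was 21.8% to 29.6% in day 21 libraries, 5.66% to 17.5% in day 30 libraries and 5.72% to 7.52% in day 45 libraries. Sensory neurons are the best known site of PIEZO2. Of 9 sensory neuron markers 2 averaged at least 1 TPM, TUBB3 and SNAP25, and POU4F1 and ISL1 were at most at a mean of 0.032 TPM on any day. The summed level of the list was 22.4 to 27.6 TPM at day 45 and 22.4 to 29.7 TPM at day 21, most of it TUBB3. At day 30 it was 20.4 to 27.2 TPM. Mean TUBB3 and STMN2 were lower at day 45 (16.3 and 0 TPM) than at day 21 (19.5 and 1.53 TPM). Mean SNAP25 was higher, at 6.7 TPM against 3.15 TPM. Of 6 Schwann cell markers 3 averaged at least 1 TPM. The sum was 275 to 335 TPM at day 21, 290 to 425 TPM at day 30 and 79.5 to 134 TPM at day 45. Most of it was S100B, which chondrocytes also express, with means of 298, 344 and 82.5 TPM on these days. SOX10, which defines Schwann cells, averaged 0.084 TPM at day 45 and 0.33 TPM at day 21, while MBP, of myelin, averaged 19.6 TPM at day 45 and 3.39 TPM at day 21. The part of these cells in the PIEZO2 values was not tested. Of 6 skeletal muscle markers 3 averaged at least 1 TPM, with a sum of 12.5 to 30.8 TPM at day 45 and 20 to 24.5 TPM at day 21, and MYOD1 was at most at a mean of 0.016 TPM on any day.

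How large a difference was depended on the scale. Between days 45 and 30, the ratio of the day means of PIEZO1 was 1.88 in CPM and 1.01 in TPM. TPM divides by the mean length of a gene's transcripts, weighted by their estimated abundance, and that length differed by a ratio of 1.8 between these days. For AQP1, AQP3, AQP6, TRPV4 and PIEZO2 the CPM and TPM ratios between days 45 and 30 lay closer together, as with 1.69 and 1.77 for TRPV4 and 0.605 and 0.587 for PIEZO2. Without TMM factors the CPM ratios of day 45 to day 21 were lower for every gene. They were 1.04 for AQP1 (1.6 with TMM), 1.32 for AQP3 (2.01) and 0.255 for AQP6 (0.388). For TRPV4 the ratio was 4.01 (6.1 with TMM), for PIEZO1 1.59 (2.43) and for PIEZO2 0.26 (0.395). Between days 45 and 21 the median log2 change of all genes tested was -0.05 with TMM and -0.34 on log2(TPM + 1). Relative to these medians, AQP1 was at 0.73 with TMM and 0.61 on the TPM scale, TRPV4 at 2.66 and 2.5, PIEZO2 at -1.29 and -1.23, PIEZO1 at 1.33 and 0.80, AQP3 at 1.06 and 0.85, and AQP6 at -1.30 and -0.44. With 0.1 TPM added in place of 1, AQP6 was at -1.21 relative to the median. Between days 45 and 30 AQP6 was at -2.31 on log2(TPM + 1), against -3.95 with TMM, and at -3.73 with 0.1 TPM added. PIEZO1 between days 45 and 30 was at 0.95 with TMM and 0 on the TPM scale, relative to the medians of -0.04 and 0.01.

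**Figure D2:**
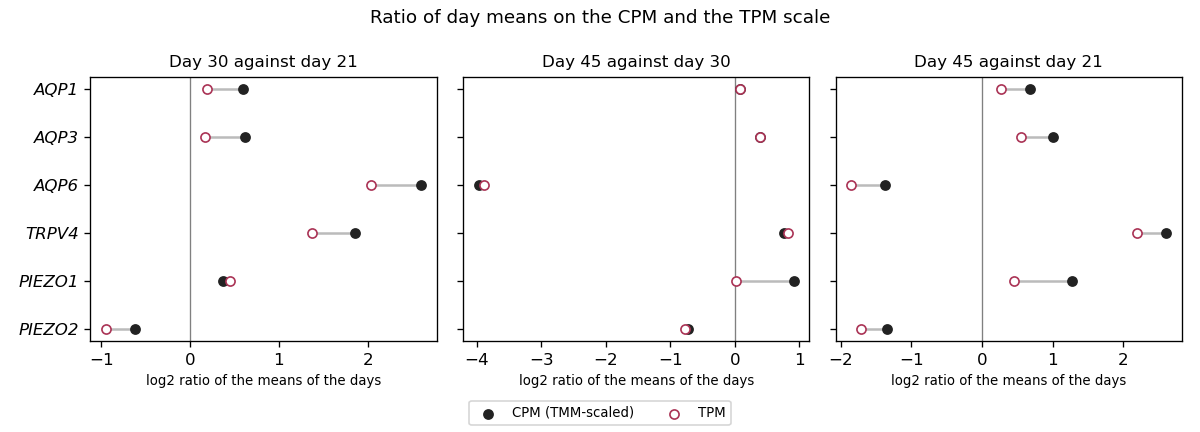
Log2 ratio of the means of the days compared (x axis) for the 6 genes, in TMM-scaled CPM (filled) and in TPM (open), 1 panel per comparison. For PIEZO1 the CPM and TPM ratios of day 45 to day 30 were 1.88 and 1.01, the widest gap in that panel.

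The genes were chosen on counts and TPM and not on the mean transcript length itself, although TPM contains it. The length was examined after its values were seen, for all 6 genes and 3 comparisons, with exact two-sided permutation tests adjusted over the 18 together. Because TPM contains the length, these tests are not independent of how the genes were chosen, and their p-values are descriptive only. For PIEZO1 it was 6279, 5962, 6142, 5740 and 6267 bases in day 45 replicates 1 to 5 and 4821, 4604, 4419 and 5229 bases in day 21 replicates 1 to 4. At day 30 it was 4616 and 3936 bases in replicates 1 and 2 and 2781, 2540 and 3050 bases in replicates 3, 4 and 5. Every day 45 library was above every other library. Among 15143 tested genes with more than 1 transcript, 8.25% had no overlap between days 45 and 21 (2.97% higher, 5.28% lower), and 15.7% none between days 45 and 30 (4.27% higher, 11.4% lower). TRPV4 was the other gene without overlap, lower at day 45 than at day 30 and higher at day 30 than at day 21, where 12% of genes had none (7.7% higher, 4.3% lower).

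No length difference passed after adjustment. The smallest exact permutation p possible was 0.00794 for 5 against 5 libraries and 0.0159 for 5 against 4. This limits what can pass after adjustment over 18 tests. The means of PIEZO1 were 6078 ± 228 bases at day 45 (SD, n = 5) and 4768 ± 349 bases at day 21 (SD, n = 4), a difference of 1309 (exact permutation p = 0.0159, the smallest this design allows; adjusted p = 0.0714). Between days 45 and 30 the difference was 2693 bases (exact permutation p = 0.00794, adjusted p = 0.0714), and 1802 bases without day 30 replicates 3 to 5. TRPV4, with 2999 ± 31.5 bases at day 45 and 3124 ± 31.1 bases at day 30 (SD, n = 5), differed by -125 bases, with the same exact permutation p and adjusted p. In all, 6 of the 18 tests had an unadjusted p below 0.05, all of them for PIEZO1 and TRPV4, and 0 had an adjusted p below that. For AQP1, AQP3, AQP6 and PIEZO2 the adjusted p was 0.869 to 0.921. PIEZO1 has 15 transcripts in the files, of 425 to 8089 bases, 5 of them protein-coding. Part of it is also covered on the opposite strand by AC138028.4, which shares 1427 of the 11292 exonic bases of PIEZO1 and averaged 5.06 TPM at day 21, 4.48 TPM at day 30 and 2.65 TPM at day 45. Reads shared with that gene cannot be assigned to either.

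**Figure D3:**
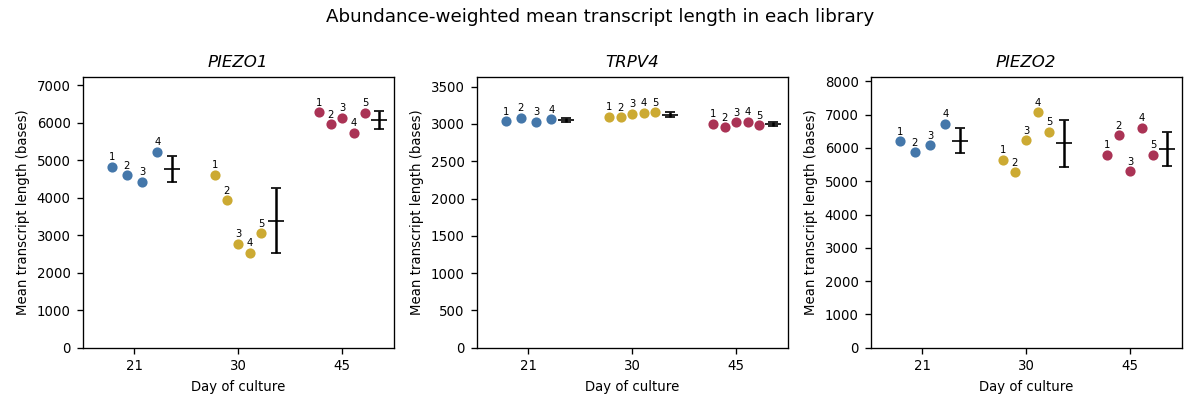
Mean transcript length in bases (weighted by estimated abundance, axis from 0) of PIEZO1, TRPV4 and PIEZO2 against day of culture. Each point is a library with its replicate number, and bars are the mean ± SD of a day (n = 4 at day 21, n = 5 at days 30 and 45). PIEZO1 was at 5740 to 6279 bases at day 45 and at 4419 to 5229 bases at day 21.

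The genes with the most similar profile were ranked by the root mean square difference of centred log2 CPM over the 14 libraries, among 13811 genes with a mean of at least 1 TPM. For TRPV4 they were CDKN1C, a cell cycle inhibitor, STEAP3, a metalloreductase of iron uptake, and GPC1, a cell surface proteoglycan, at 0.15 to 0.16 log2 units. For PIEZO1 they were ADAM15, a membrane protease, COL6A1, a collagen around cells, and PLXNA1, a semaphorin receptor, at 0.15 to 0.16. For PIEZO2 they were FAM120C (0.16) and the basement membrane collagens COL4A1 and COL4A2 (0.2 each). AQP3 lay nearest to NINJ2-AS1, FITM2 and GPC4 (0.13 to 0.17), and AQP1 to FAM174C, TPRN and DCUN1D2 (0.21 each). AQP6 lay nearest to CLEC18C, RBPJL and CMTM5 (0.64 to 0.69), and all 3 had their highest mean TPM at day 30. The measure grows with a gene's own spread, which was an SD of 1.83 log2 units over the libraries for AQP6, 1.11 for TRPV4 and 0.42 to 0.61 for AQP1, AQP3, PIEZO1 and PIEZO2.

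Genes of the same pathways were taken from 6 lists of 96 genes, of which 77 passed the filter. The lists were chosen with earlier results of these data known. Their counts are therefore described beside those of all genes, and nothing is read from the difference. In all, 57.7% of the genes tested were called for day 45 against day 21, 56.3% for day 45 against day 30 and 54.4% for day 30 against day 21. In edgeR's quasi-likelihood test with Benjamini-Hochberg adjustment over all genes tested, 37 of the 77 rose for day 45 against day 21 (48.1%, against 27.1% of all genes tested) and 18 fell (23.4%, against 30.5%). For day 45 against day 30, 39 rose (50.6%, against 27.6%) and 15 fell (19.5%, against 28.7%). With the library of conflicting labels placed at day 30, 18 rose and 12 fell in that comparison, and without it 36 rose and 15 fell. For day 30 against day 21, 30 rose (39%, against 27.2%) and 22 fell (28.6%, against 27.1%). The median log2 fold change of the 77 genes was 0.36, 0.48 and -0.04 in these comparisons, and that of all genes tested -0.05, -0.04 and 0.02. On log2(TPM + 1) limma called 24 of the 77 higher and 27 lower at day 45 than at day 21, and over all genes tested 2140 higher and 8720 lower in place of 4836 and 5448. Of the 55 related genes called in that comparison, 41 were also called in the same direction on this scale. For day 30 against day 21 that scale gave 14 higher and 38 lower, and over all genes 1788 and 9032 in place of 4858 and 4838. With an offset for transcript length, 5845 genes were higher and 4789 lower for day 45 against day 21, and 5881 and 4158 for day 45 against day 30, in place of 4930 and 5121.

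**Figure D4:**
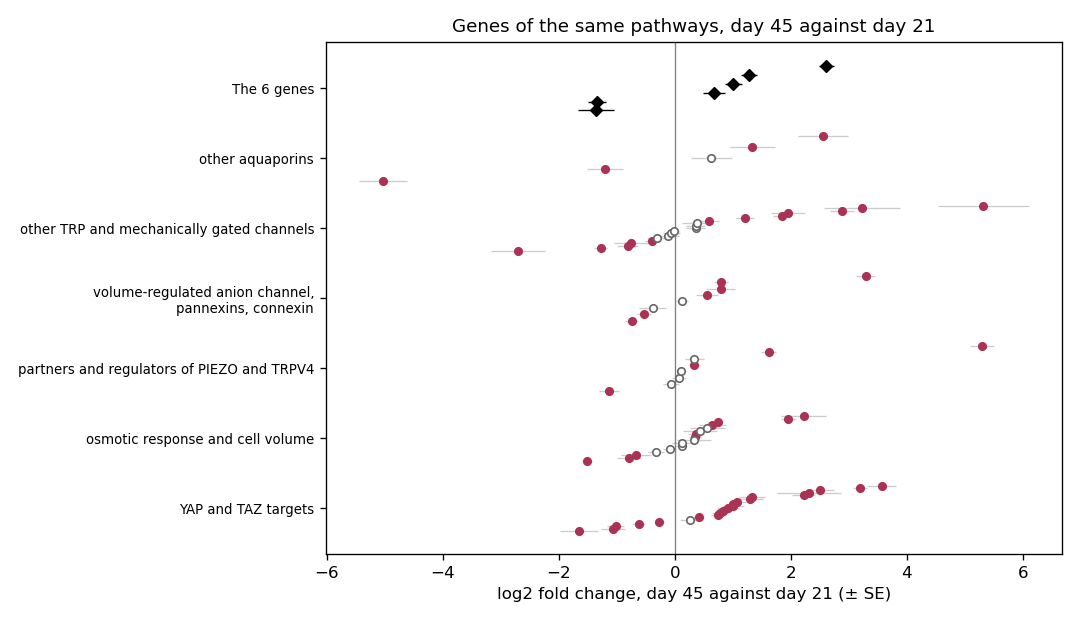
Log2 fold change of day 45 against day 21 with its SE (x axis) for the 6 genes (black diamonds, described without a test) and for the genes of the 6 related lists. Filled circles passed the edgeR test at an adjusted p below 0.05 and open circles did not. Of the 21 YAP and TAZ targets tested, 15 rose and 5 fell, and of all genes tested 27.1% rose and 30.5% fell.

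Of the 11 other aquaporins, 5 passed the filter, and all were low. For day 45 against day 21, 2 rose, 2 fell and 1 did not pass. AQP4, the water channel of brain and muscle, fell by 5.03 ± 0.41 on the log2 scale (SE; edgeR adjusted p = 1.52e-08), with 0.14 TPM at day 45 and 3.04 TPM at day 21. AQP5, a channel of secretory glands, had its highest mean at day 30, as AQP6 did, with 1.58 TPM at day 21, 2.93 TPM at day 30 and 0.494 TPM at day 45. It rose by 1.26 ± 0.29 at day 30 against day 21 (SE; edgeR adjusted p = 0.00129) and fell by 2.47 ± 0.30 at day 45 against day 30 (SE; edgeR adjusted p = 3.75e-06). AQP7, which passes glycerol, rose by 2.81 ± 0.38 for day 30 against day 21 (SE; edgeR adjusted p = 9.57e-06) and was at 1.33 TPM at day 30. For MIP, AQP2, AQP8, AQP9, AQP10 and AQP12A no library held more than 4 counts.

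Of the 29 other TRP and mechanically gated channels, 19 passed the filter, and 7 rose, 5 fell and 7 did not pass for day 45 against day 21. SCNN1A, a subunit of the epithelial sodium channel, rose by 2.88 ± 0.21 (SE; edgeR adjusted p = 4.48e-09), with 15.9 TPM at day 45 and 3.98 TPM at day 21. PKD1, the large polycystin of primary cilia, rose by 1.85 ± 0.16 (SE; edgeR adjusted p = 4.12e-08). It rose by 1.08 ± 0.15 in CPM for day 45 against day 30 (SE; edgeR adjusted p = 1.39e-05). On log2(TPM + 1) it was at -0.14 and did not pass (limma adjusted p = 0.442). Like the size of the PIEZO1 difference, the rise of PKD1 in that comparison depended on the scale. PKD2, the channel partner of PKD1, was at -0.06 ± 0.15 for day 45 against day 21 (SE; edgeR adjusted p = 0.744). TMEM63A, a channel opened by osmotic stretch, fell by 1.28 ± 0.11 (SE; edgeR adjusted p = 2.85e-08). ASIC1, an acid-sensing channel, averaged 17.9 TPM at day 21, 41.2 TPM at day 30 and 7.09 TPM at day 45. It rose by 1.69 ± 0.18 for day 30 against day 21 (SE; edgeR adjusted p = 8.22e-07) and fell by 2.51 ± 0.17 for day 45 against day 30 (SE; edgeR adjusted p = 1.65e-08).

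Among 8 tested genes of the volume-regulated anion channel, pannexins and connexin hemichannels, 4 rose, 2 fell and 2 did not pass for day 45 against day 21. LRRC8A, the subunit that this anion channel cannot do without, rose by 0.80 ± 0.12 (SE; edgeR adjusted p = 1.96e-05). PANX2, a pannexin, rose by 3.29 ± 0.17 (SE; edgeR adjusted p = 4.54e-11), with 8.56 TPM at day 45 and 1.17 TPM at day 21. PANX1 fell by 1.24 ± 0.12 for day 30 against day 21 (SE; edgeR adjusted p = 2.03e-07) and was at 10.6 TPM at day 21, 3.29 TPM at day 30 and 5.38 TPM at day 45. GJA1, connexin 43, fell by 0.74 ± 0.10 for day 30 against day 21 (SE; edgeR adjusted p = 9.91e-06) and rose by 0.86 ± 0.10 for day 45 against day 30 (SE; edgeR adjusted p = 1.61e-06).

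Of 8 tested partners and regulators of PIEZO and TRPV4, 3 rose, 1 fell and 4 did not pass for day 45 against day 21. PACSIN3, which binds TRPV4 and keeps it at the cell surface, rose by 1.62 ± 0.13 (SE; edgeR adjusted p = 8.13e-09), with 42.7 TPM at day 45 and 18.5 TPM at day 21. CAV1, the coat protein of caveolae, rose by 5.30 ± 0.21 (SE; edgeR adjusted p = 3.88e-12), with 33.3 TPM at day 45 and 1.53 TPM at day 21. TMEM150C, a reported modulator of PIEZO currents, fell by 1.13 ± 0.17 (SE; edgeR adjusted p = 2.08e-05). FLNA, an actin crosslinker, was at 0.08 ± 0.12 (SE; edgeR adjusted p = 0.597), and for day 45 against day 30 it was at 0.74 in CPM and -0.24 on log2(TPM + 1). MDFI, whose family binds PIEZO channels, averaged 239 TPM at day 45 and 310 TPM at day 21, and its log2 fold change in CPM was 0.11 ± 0.09 (SE; edgeR adjusted p = 0.334). ITGB1, the common integrin subunit, was at -0.07 ± 0.14 (SE; edgeR adjusted p = 0.661).

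Of 16 genes of osmotic response and cell volume, 6 rose, 3 fell and 7 did not pass for day 45 against day 21. STK39, a kinase that switches ion cotransporters when cell volume changes, rose by 1.96 ± 0.13 (SE; edgeR adjusted p = 9e-10), with 186 TPM at day 45 and 65.2 TPM at day 21. OXSR1, its paralog, rose by 0.75 ± 0.08 (SE; edgeR adjusted p = 4.54e-07) and was at 0.22 on log2(TPM + 1), where it did not pass (limma adjusted p = 0.103). WNK1, the kinase upstream of both, rose by 0.36 ± 0.14 (SE; edgeR adjusted p = 0.0383) and was at -0.23 on log2(TPM + 1), or 0.11 relative to the median of that scale (limma adjusted p = 0.153). SLC6A6, the taurine transporter, fell by 1.51 ± 0.09 (SE; edgeR adjusted p = 2.38e-10), with 5 TPM at day 45 and 17.9 TPM at day 21.

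Of 21 tested targets of YAP and TAZ, co-activators that respond to mechanical cues among others, 15 rose, 5 fell and 1 did not pass for day 45 against day 21. Of all genes tested, 27.1% rose and 30.5% fell in this comparison. The median log2 fold change was 0.91, against -0.05 for all genes tested. Of the 15 that rose, AMOTL2 (-0.03), LATS2 (0.32), AXL (0.36) and DOCK5 (0.48) did not pass on log2(TPM + 1). Their limma adjusted p there was 0.806, 0.083, 0.068 and 0.0535, and the others of the 15 passed as higher. Since this list was also chosen with earlier results of these data known, these values are a description only. For day 45 against day 30, 15 rose and none fell, with 6 not passing, while 27.6% of all genes tested rose and 28.7% fell. With the library of conflicting labels placed at day 30, 6 rose and 1 fell, and without it 13 rose and 1 fell. CCN2, a secreted matrix protein, rose by 3.57 ± 0.25 for day 45 against day 21 (SE; edgeR adjusted p = 2.75e-09), with 2290 TPM at day 45 and 265 TPM at day 21. GADD45A, a growth arrest gene also induced by stress, rose by 3.19 ± 0.12 (SE; edgeR adjusted p = 3.88e-12). NT5E, an enzyme that makes adenosine, rose by 2.22 ± 0.20 (SE; edgeR adjusted p = 5.94e-08), and CCN1 by 1.01 ± 0.13 (SE; edgeR adjusted p = 3.7e-06). ASAP1, a regulator of focal adhesions, fell by 0.62 ± 0.11 (SE; edgeR adjusted p = 0.000121).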

How the data were processed

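Each deposited table holds length, effective length, expected count and TPM for 60587 genes of 1 library. Per the submitters' processing notes, STAR 2.4.2a and RSEM 1.2.25 were used with the GRCh38 build, and per the labels the kit was TruSeq RNA v2, which does not mark strand. Which annotation release was used is not stated in them. The expected counts deposited by the authors were rounded to whole numbers. The deposited TPM were used as given, and log2 values were computed from them with 1 or 0.1 added. Of the identifiers, 60333 had a symbol. The positions come from GENCODE 29, which held all transcripts of the files for 5 of the 6 genes and 5 of 8 for AQP1, and the promoter windows from RefSeq (GRCh38.p14), which matched 4 of the 6 genes.

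The filter on low counts was filterByExpr, grouped by day. Counts were scaled by TMM, and edgeR 4.0.16 (quasi-likelihood F-test, robust dispersions) was run on all genes in 1 fit of a mean per day over 14 libraries. An adjusted p below 0.05 was a call. The SE is the log2 fold change divided by the square root of F. The mean transcript length is RSEM's length column and was compared with exact permutation tests. It follows RSEM's division of reads among transcripts, which reads of a shared exon do not settle.

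The 6 genes, the 6 related lists and the 10 marker lists were chosen with earlier results of these data known. Related genes were named by rule, up to 4 with the smallest adjusted p in any comparison among those called with at least 1 TPM on their highest day, and the 2 most abundant, and each of the 6 genes has its 3 nearest profiles. Some genes are named beyond the rule to account for list members, markers and overlapping genes. Replicate numbers were not used to pair libraries. Replicates all differed by more than sampling noise (chi-square divided by its degrees of freedom, 7.21 to 155.79). Alternatives were DESeq2 1.42.0 and its size factors, limma 3.58.1 on both TPM scales and with voom, other filters, fits restricted to a pair of days, a replicate block, an offset for effective length (loess, span 0.3), leaving out each library, and those for day 45 replicate 1 and day 30 replicates 3 to 5. Leaving out both of the last was added after the data were seen.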

Additional observations from a re-analysis of the deposited data

Results flagged for a closer look

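AQP6 in day 45 replicate 5 stood apart from the other day 45 libraries in all 3 measures. It had 0.206 CPM, against 0.751 to 0.845 CPM in the other 4 libraries, and 0.06 TPM, against 0.45 to 0.54 TPM. Its mean transcript length was 5129 bases, which is the length of the longest AQP6 transcript, against 2486 to 2800 bases. The library held 5 expected counts of AQP6, and the others 19 to 23. Of 54 sets of libraries examined in this way, 3 stood apart, all of them this one. A set would be picked by chance about 1 time in 20, and these 3 come from the same few reads.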

How the results depend on the processing

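The fold changes of the 6 genes were recomputed under 27 alternatives for 18 differences, which gave 452 values within 1 SD between replicates of the reported one and 34 beyond it, 23 of them on the TPM scales. The difference of AQP1 for day 45 against day 30 took the other sign under 3 alternatives, and the other 17 kept theirs under all 27. CPM without TMM factors was not among these alternatives. There the ratio was 0.994 for PIEZO1, day 30 against day 21, and 0.887 for AQP1, day 45 against day 30. For the related genes, counts moved by over 1.5 times on the TPM scales and with day 45 replicate 1 placed at day 30. On log2(TPM + 1) and log2(TPM + 0.1), 14 and 15 rose and 38 and 37 fell for day 30 against day 21, and 24 rose on either scale for day 45 against day 21. With day 45 replicate 1 placed at day 30, 6466 genes were called for day 45 against day 30 in place of 10051, and 18 related genes rose in place of 39. Leaving out single libraries gave 34 to 39 related genes that rose for day 45 against day 21 and 35 to 42 for day 45 against day 30. Without day 30 replicates 3 to 5 and day 45 replicate 1 together, 43 rose for day 45 against day 21 and 31 for day 45 against day 30. Same-numbered libraries of different days correlated at -0.25 to 0.12 in 13 pairs, and other pairs at -0.22 to 0.23. These correlations show no pairing by number. They cannot settle whether same-numbered libraries share a culture, since differences between libraries such as that in long transcripts also enter them. A replicate block gave 36 related genes that rose and 16 that fell for day 45 against day 21, and 9728 calls over all genes in place of 10284. AQP6 at day 45 rests on 5 to 23 counts a library, which limits its fold changes. Values moved with the TMM factors as well as between CPM and TPM, and why they moved was not tested beyond the length of the transcripts.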
